A study of Mus musculus with 48 samples.

Results

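Hind limb unloading suspends a mouse by the tail so that the hind limbs bear no weight, and it is used as a ground model of weightlessness. Its effect on hypothalamic RNA was set here between an early and a late period, in the quiet series at 10 dBA and normal pressure. The comparison is a difference of differences, called the interaction below. It is the late unloading effect (unloaded less free-moving, 6 libraries each) less the early unloading effect (12 libraries each). It used 36 of the 48 libraries of the study. The late groups were the late unloaded and the late free-moving mice, male C57BL/6 and 3 months old. The early groups were the early unloaded and the early free-moving mice, male C57BL/6 and 2 months old, each deposited as a pair of series with the same labels, called a and b here. Every library was a pool of hypothalamus from 3 mice, and each series held the title numbers 1, 5, 9, 13, 17 and 21, which carry no unit in the labels. The series' design text gives 2 months for all mice. Going by the sample labels, period and age moved together and cannot be told apart, and the labels give no duration of unloading for either period. Each late group was a single series, so a late unloading effect cannot be told apart from a difference between the series themselves. No other statement in the labels limits the model, and nothing says that libraries of different title numbers were prepared apart, so p-values measure the spread between these pools.

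The hypothalamus holds small groups of neurons that release peptides and hormones. They set feeding, water balance, body temperature, daily rhythm and the pituitary-adrenal stress response. Most of its other neurons are inhibitory or excitatory cells whose firing depends on voltage-gated channels and on receptors for GABA and glutamate. Glucocorticoids released in stress act back on this tissue through a nuclear receptor, and neuronal firing switches on immediate early genes within a short time.

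The data were deposited as RPKM, read counts scaled by gene length and by the number of mapped reads, for 21558 genes, of which 13685 passed a mean of at least 0.5 RPKM and were tested. Depth is not stated, and the steps between low values gave an estimate of 28.3 M to 55.2 M reads for the quiet libraries. Multiples of these depths would fit the steps nearly as well. All marker lists were detected, among them the hypothalamic transcription factors, which summed to 71.8 to 92.9 RPKM in late unloaded, 63.0 to 103 in late free-moving, 44.1 to 95.8 in early unloaded and 38.8 to 86.0 in early free-moving libraries. Several libraries stood apart. Number 9 of early unloaded series a held 12137 RPKM of anterior pituitary transcripts, and both late libraries of number 17 held choroid plexus transcripts (286 RPKM when unloaded, 398 when free-moving). Number 1 of early free-moving series a held 6255 RPKM of blood cell transcripts. Leaving these libraries out gave 3836 called genes without the pituitary-rich library, 3337 without both choroid-rich libraries and 4388 without the blood-rich library, against 4589 with all of them. In whole tissue, fewer cells of a type and less RNA per cell cannot be told apart.

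Calls were made in limma at an adjusted p below 0.05, with Benjamini-Hochberg adjustment over all genes. The difference between unloaded and free-moving libraries was unlike in the late and the early period for 4589 of the 13685 genes (33.5%). The interaction was positive for 1092 of them (7.98%), so unloaded stood higher against free-moving in the late period than in the early one. It was negative for 3497 (25.6%). The late effect alone was called for 1283 genes higher (9.38%) and 462 lower (3.38%) in late unloaded than in late free-moving libraries. Early unloaded libraries were higher than early free-moving ones for 6970 genes (50.9%) and lower for 257 (1.88%), 52.8% in all. The median over all genes was 0.02 for the late effect, 0.23 for the early effect and -0.22 for the interaction (log2), so a negative interaction was the commoner direction of the whole table. The directions of the late and the early effect depended on the scaling. After quantile normalization the late effect was called for 1940 genes higher and 1980 lower, and after median scaling for 1848 higher and 1670 lower. For the early effect quantile normalization gave 1521 higher and 1263 lower, and median scaling 1152 higher and 1572 lower. With the share of the mitochondrial genes as a covariate the late effect was higher for 3084 and lower for 971 genes, and the early effect higher for 1 and lower for 0.

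With the deposited values, the genes with a negative interaction were of several kinds. For 2678, early unloaded libraries were higher than early free-moving ones and the late effect was not called. Another 244 were lower in late unloaded and higher in early unloaded libraries, each against its free-moving group. A late fall alone was called for 202, and neither effect alone for 373. Among positive interactions, 699 genes were higher in late unloaded libraries with no early call, 141 were lower in early unloaded libraries with no late call, and 64 were higher late and lower early. Neither was called for 177, and 11 were higher in both periods, more so in the late one.

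**Figure D1:**
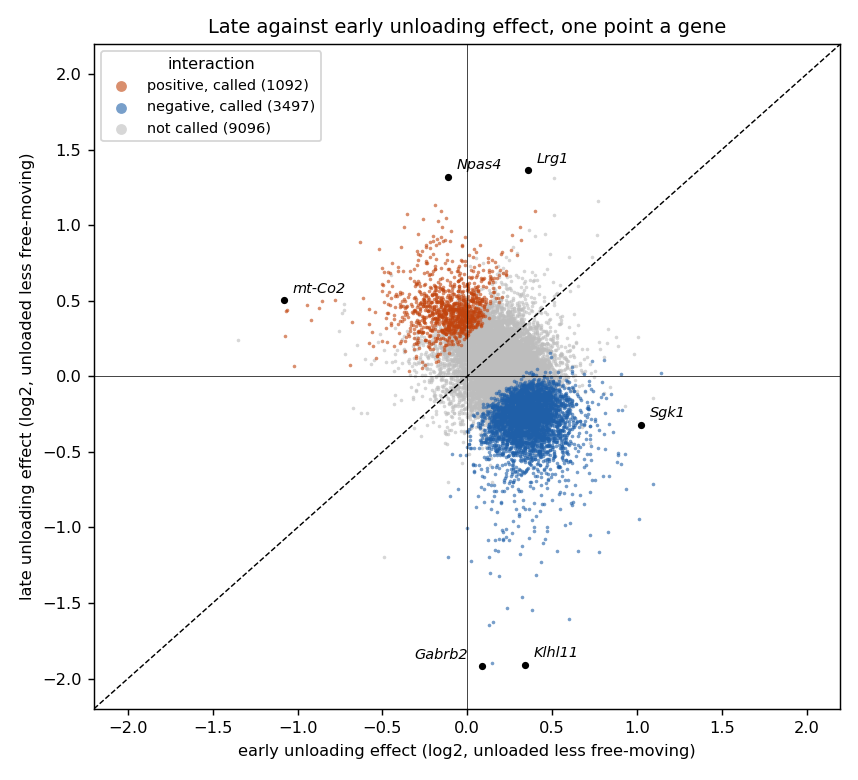
Each point is 1 of 13685 genes, with the early unloading effect on the horizontal axis and the late unloading effect on the vertical axis (both log2, unloaded less free-moving), coloured by the interaction call, and the dashed line marks equal effects. The 3497 negative calls lie below the line and mostly to the right of 0, and the 1092 positive calls lie above it.

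The late free-moving series lay at an extreme for most called genes. Among the 6 quiet series its mean was the highest for 3454 of the 3497 negative genes (98.8%, against 44.9% of all tested genes), and the lowest for 1074 of the 1092 positive genes (98.4%, against 22.8%). All 6 late free-moving libraries lay above the other 30 quiet libraries for 1488 negative genes, where 11.1% of all tested genes did so. They lay below the other 30 for 521 positive genes, where 4.27% of all tested genes did. These shares describe the groups that enter the contrast and are no test of it.

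The counts depended on the early series and on the scaling. With series b alone in the early period 741 genes were called, with series a alone 4891. Early unloaded a with early free-moving b gave 6892, and early unloaded b with early free-moving a gave 30. Nearly all genes named below, apart from 28, thus lose their call with that last pair. Leaving out title number 9, 13 or 17 left 2003, 2260 or 1818 calls. Of 121 genes checked for the text and called with all libraries, 43 lost the call without at least 1 title number. Quantile normalization gave 2604 positive (19.0%) and 2841 negative genes (20.8%). Median scaling gave 3106 and 2329, the share of the mitochondrial genes as a covariate 1374 (10.0%) and 397 (2.90%), and removal of a trend in transcript length and GC content 1789 and 1868. The share of positive calls was thus 47.8%, 57.1%, 77.6% and 48.9% under these scalings, where the deposited values gave 23.8%. List counts under these scalings, given below, are to be read against these shares, since the whole table moved. List counts with the deposited values are to be read against 7.98% positive and 25.6% negative of all tested genes.

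A set of 28 genes, 6 positive and 22 negative, passed the test with each of the 4 pairs of early series. These pairs share series, so they are not independent. The same 28 passed under the 4 other scalings and without each title number in turn. For each of the 22 negative genes, late unloaded libraries were all below late free-moving libraries, and the early groups overlapped. The shares of all tested genes so placed are not given here. The early effect ranged from -0.11 to 0.46 (log2) and was called for 7 of the 22, where 52.8% of all tested genes were called. All late free-moving libraries were above the other 42 libraries of the study, noise libraries included, for 21 of the 22, where 10.1% of all tested genes were so placed. The contrast that picked the set holds these groups, so these placements follow in part from the choice and are no test of it. Genes outside the set, among them Gpr165 and Gad2, had overlapping early groups as well. The list was put together after the values were seen, and it is described here by function.

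Channels, receptors and transporters had some of the largest changes of the 22. Klhl11 (ENSMUSG00000048732.5, chr11:100462614-100472741), a substrate adaptor of a cullin ubiquitin ligase, led them, and it is described here with them for its size. Its level was 1.16, 1.70 and 2.02 RPKM (lowest, median, highest) in late unloaded libraries and 6.58, 7.61 and 8.07 in late free-moving libraries. In early unloaded libraries it was 0.417, 0.879 and 1.63 RPKM, and in early free-moving libraries 0.0765, 0.715 and 0.936. The late groups did not overlap and late free-moving was the high group, while the early groups overlapped. Klhl11 had an interaction of -2.25 ± 0.21 (log2, SE; adjusted p = 1.5e-09), negative for every title number. Its late effect was -1.91 and its early effect 0.34. In the noise series, which do not enter the contrast, the unloading effect on Klhl11 was 0.19 (adjusted p = 0.788).

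Gabrb2 (ENSMUSG00000007653.12, chr11:42419757-42629028), a beta subunit of the GABA-A receptor, had 1.28, 1.51 and 1.94 RPKM in late unloaded and 5.38, 7.69 and 8.74 RPKM in late free-moving libraries. Early unloaded libraries had 0.280, 0.523 and 1.39 RPKM of it, and early free-moving libraries 0.122, 0.525 and 0.928. Only late free-moving libraries stood high, and the early groups shared nearly the same median. The interaction of Gabrb2 was -2.01 ± 0.20 (adjusted p = 6.67e-09).

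Kcna3 (ENSMUSG00000047959.4, chr3:107036169-107038070), a voltage-gated potassium channel, had 0.264, 0.618 and 0.843 RPKM in late unloaded and 2.71, 3.04 and 4.84 in late free-moving libraries. It was low in the early period, with 0.0623, 0.159 and 0.672 RPKM in early unloaded and 0, 0.106 and 0.303 in early free-moving libraries. As for Gabrb2, late free-moving was apart and the early groups overlapped. Both early medians lay below the 0.5 RPKM added before the log, so that overlap says little for Kcna3. Its interaction was -2.04 ± 0.23 (adjusted p = 8.41e-08).

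Trpc5 (chrX:144381671-144688180), a cation channel, had 0.483, 0.743 and 0.859 RPKM in late unloaded and 2.48, 2.65 and 3.75 in late free-moving libraries, and at most 0.791 in early unloaded and 0.527 in early free-moving libraries. Slc9a7 (chrX:20105754-20291807), a sodium-proton exchanger of the Golgi, had 1.03, 1.06 and 1.41 RPKM in late unloaded and 3.87, 4.45 and 5.17 in late free-moving libraries. Both had an interaction of -1.78, with SE 0.21 for Trpc5 and 0.19 for Slc9a7 (adjusted p = 1.53e-07 and 2.99e-08). Chrna7, the alpha 7 nicotinic acetylcholine receptor, had -1.34 ± 0.19. For each of these genes the late groups did not overlap and late free-moving was the high group. The filter on mean RPKM included the late free-moving libraries, so low genes such as Kcna3 and Trpc5 may have passed it through that group.

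Adhesion and synaptic genes formed another group of the 22. Pcdhac2 (ENSMUSG00000102697.1, chr18:37143503-37187657), a clustered protocadherin of the neuronal surface, had 1.53, 1.79 and 2.13 RPKM in late unloaded and 5.51, 6.19 and 7.46 in late free-moving libraries. In the early period unloaded libraries had 0.187, 0.571 and 1.60 RPKM, and early free-moving libraries 0, 0.397 and 1.06. Late free-moving was again the group apart. The interaction was -1.93 ± 0.26 for Pcdhac2 (adjusted p = 4.19e-06) and -1.26 ± 0.21 for Pcdhga2, a gamma protocadherin. Of their exon bases, 48.6% in Pcdhac2 and 45.1% in Pcdhga2 are shared with other genes of their clusters, so reads may be split between members. Adgrl3, a latrophilin adhesion receptor, had -1.23 ± 0.16, and Stxbp5l, a tomosyn that restrains vesicle release, had -1.25 ± 0.19. Hs6st3, which sulfates heparan chains, had -1.77 ± 0.20, and Shc3, a neuronal signalling adaptor, had -1.25 ± 0.24.

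The remaining genes of the 22 were nuclear, metabolic or of less known role. Aff2, a nuclear protein linked to fragile X E intellectual disability in humans, had an interaction of -1.77 ± 0.18. Klf12, a zinc finger repressor, had -1.21 ± 0.14, and Zfp53, a zinc finger gene, had -0.86 ± 0.14, the smallest of the 22. Nt5c1a, a cytosolic nucleotidase, had -1.54 ± 0.25. Tmem178b (-1.43), Faxc (-1.43), Lancl3 (-1.51), Tmppe (-1.33), Xkr4 (-1.24) and Uprt (-1.09) completed the group. In the noise series the unloading effect on the 22 genes ranged from -0.27 to 0.29, with adjusted p above 0.05 for each in limma. Of all genes looked up there, only Agrp and Lrg1 had adjusted p below 0.05, so the lack of calls is not particular to the 22. The share of all tested genes called in the noise series is not given here.

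Other genes with the largest negative interactions depended on the pair of early series. Gpr165 (chrX:96713441-96719388), an orphan receptor, had 3.94, 5.56 and 6.51 RPKM in late unloaded and 15.1, 16.9 and 20.1 in late free-moving libraries. Early unloaded libraries had 0.836, 1.38 and 6.69 RPKM of it, and early free-moving libraries 0.681, 0.904 and 3.41. Its interaction was -2.21 ± 0.36 (adjusted p = 8.01e-05). Ptprn2, a dense-core vesicle protein, had -1.96 ± 0.42, and Cmip, an adaptor, had -1.94 ± 0.38. Prepl, a serine hydrolase, had -1.86 ± 0.42, and Usp33, a deubiquitinase, had -1.81 ± 0.35. Arl10, a small GTPase of the ARF family, had -1.81 ± 0.54, and its call was lost without title number 9 (adjusted p = 0.0537) or 17 (adjusted p = 0.067). For all 6 of these genes late free-moving libraries were above the other 30 quiet libraries, and for all 6 the call was lost with early unloaded b and early free-moving a.

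**Figure D2:**
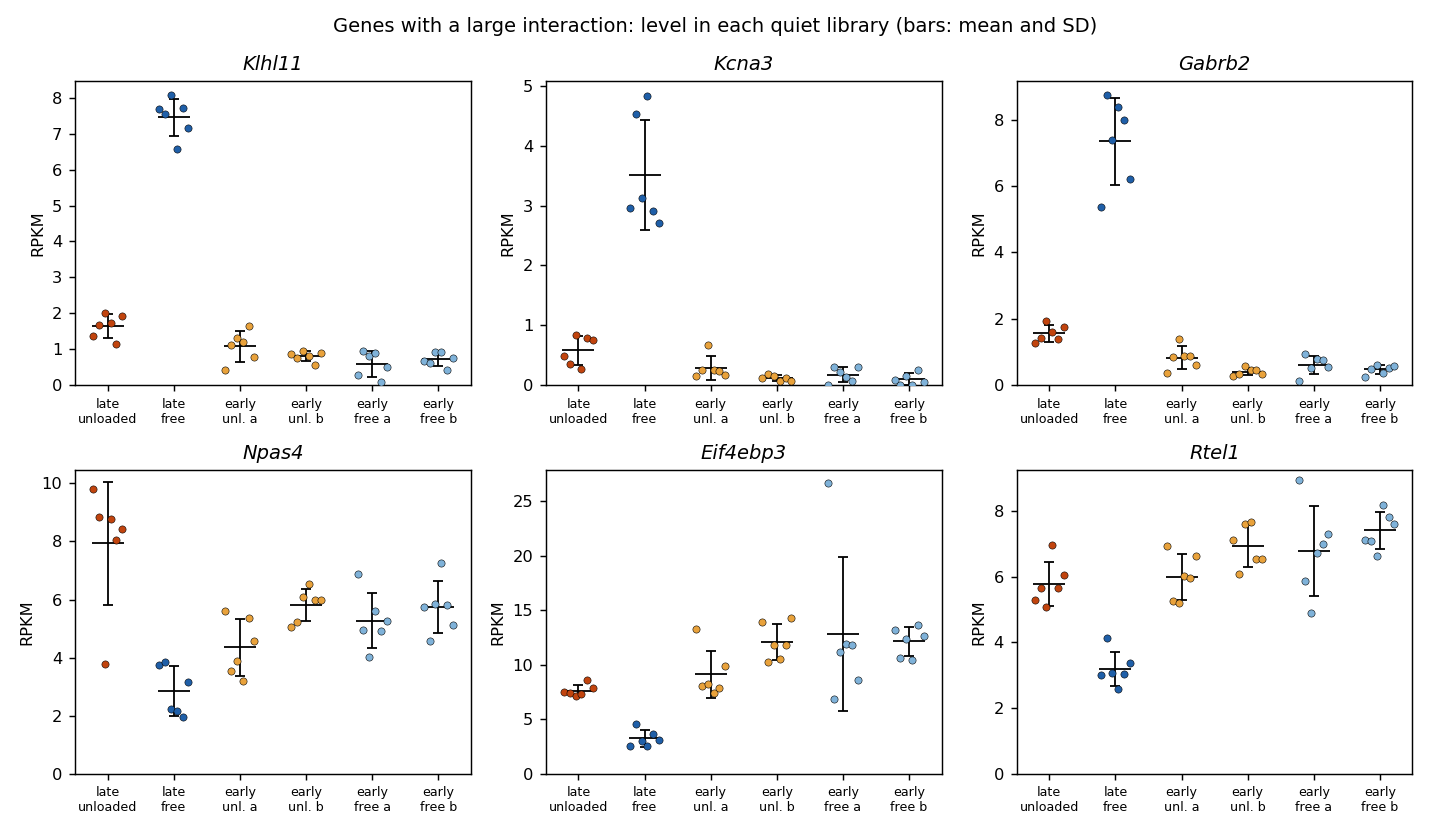
Points are single libraries (RPKM, linear axis) of the 6 quiet series, with the mean and SD of each series as bars, for 3 genes with a negative interaction (top) and 3 with a positive one (bottom). Late free-moving libraries lie above all others for Klhl11, Kcna3 and Gabrb2 (at least 2.71 RPKM) and low for Npas4, Eif4ebp3 and Rtel1.

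On the positive side, Npas4 (ENSMUSG00000045903.9, chr19:4984355-4990316) was the member of the stable genes with the largest change. It is an immediate early transcription factor that neurons switch on upon calcium entry and that shapes inhibitory synapses. Its promoter is shown because cAMP-responsive elements are a known entry point of that signal. The stretch below is from RefSeq (GRCm38.p6, chr19:4990086-4990190, minus strand, 5′ to 3′), and capitals mark the half-site TGACG on either strand.
Npas4: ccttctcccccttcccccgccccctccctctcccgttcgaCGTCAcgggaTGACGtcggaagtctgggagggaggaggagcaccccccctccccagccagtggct
That half-site is in the promoters of 34.4% of 10852 tested genes with a RefSeq promoter (250 bases before to 50 after the start), and in 10 of 13 immediate early genes that had one. A match describes the letters and not a bound site.

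Npas4 had 3.79, 8.60 and 9.80 RPKM in late unloaded and 1.95, 2.68 and 3.85 RPKM in late free-moving libraries. Early unloaded libraries had 3.20, 5.29 and 6.54 RPKM, and early free-moving libraries 4.02, 5.43 and 7.25. Late unloaded was high except for number 9, the library at 3.79 RPKM, which fell within the late free-moving range, and late free-moving was low. The interaction was 1.44 ± 0.21 (adjusted p = 1.5e-05), positive for every title number. Its late effect was 1.32, its early effect -0.12, and the effect in the noise series -0.11.

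Eif4ebp3 (ENSMUSG00000090264.1, chr18:36664060-36665917), a repressor of cap-dependent translation, had 7.09, 7.45 and 8.60 RPKM in late unloaded and 2.54, 3.07 and 4.52 in late free-moving libraries. The early groups overlapped, at 7.42, 10.4 and 14.3 RPKM in early unloaded and 6.90, 11.8 and 26.7 in early free-moving libraries. Late free-moving was the low group of all. The interaction was 1.33 ± 0.20 (adjusted p = 3.75e-05). A readthrough gene on the same strand covers 67.3% of the exon bases of Eif4ebp3, so its reads cannot be told apart from that transcript's.

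Rtel1, a DNA helicase of telomere upkeep, had 5.07, 5.66 and 6.97 RPKM in late unloaded and 2.58, 3.06 and 4.12 in late free-moving libraries. It had 5.21, 6.54 and 7.65 RPKM in early unloaded and 4.89, 7.10 and 8.94 in early free-moving libraries. Late free-moving was again low and apart from the other 30 libraries. The interaction was 0.89 ± 0.14 (adjusted p = 6.77e-05). Amy1, an amylase gene with near copies that could split its reads, had 1.13 ± 0.19. Col16a1, a collagen chain, had 0.93 ± 0.16. In the noise series the 6 positive genes of the set ranged from -0.28 to 0.23, with adjusted p above 0.05 for each in limma. The same held for nearly all genes looked up there.

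Further large positive interactions were called in fewer settings. Lgals4, a galectin, had 2.28, 2.68 and 3.05 RPKM in late unloaded and 0.617, 1.28 and 2.09 in late free-moving libraries. It had 2.12, 4.33 and 8.21 RPKM in early unloaded and 3.59, 6.82 and 8.35 in early free-moving libraries. The late groups did not overlap, and the interaction was 1.52 ± 0.28 (adjusted p = 0.000365). Insl5, an insulin-like peptide, had 1.43 ± 0.26. Cfp, the complement factor properdin, had 1.36 ± 0.26. Rps6kb2, a kinase of ribosomal protein S6, had 1.36 ± 0.25, and 23.7% of its exon bases overlap a gene on the other strand. The strand setting of the counting is not given in the sources used here. All 4 calls were lost with early unloaded b and early free-moving a.

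The genes encoded in the mitochondrial genome had the largest list median. They encode core subunits of the respiratory chain and ATP synthase. Of the 13, 10 had a positive interaction and 0 a negative one, with a list median of 1.34, against 7.98%, 25.6% and -0.22 over all tested genes. The 3 not called, mt-Nd4l, mt-Nd5 and mt-Atp8, had 1.16, 1.17 and 1.59. Among them mt-Co2 (ENSMUSG00000064354.1, chrM:7013-7696), a subunit of cytochrome oxidase, had 4750, 5463 and 6712 RPKM in late unloaded and 2960, 4076 and 4650 in late free-moving libraries. The early unloaded libraries had 4512, 13155 and 27673 RPKM, and early free-moving libraries 7914, 26369 and 54628. The late groups did not overlap, and early libraries spread over a wide range. The interaction of mt-Co2 was 1.59 ± 0.45 (adjusted p = 0.00948), and the call was lost without title number 9 (adjusted p = 0.0623). The interaction was 1.51 for mt-Nd1, 1.41 for mt-Cytb, 1.36 for mt-Nd6 and 1.34 for mt-Atp6. These 4 calls were lost without title number 9 or 17, and those of mt-Cytb and mt-Nd6 also without 13 (adjusted p from 0.0521 to 0.105).

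Their summed share of all RPKM was taken in each library. It was 14.0% ± 1.32 (SD, n = 6) in late unloaded and 11.5% ± 1.68 (n = 6) in late free-moving libraries. In the early period it was 27.4% ± 13.1 (n = 12) in unloaded and 43.2% ± 12.2 (n = 12) in free-moving libraries. Early libraries ranged from 11.2% to 51.0% when unloaded and from 18.7% to 62.4% when free-moving. The late effect less the early effect averaged 18.3 percentage points (SD 14.7 over 6 title numbers, from -3.72 to 35.7) and was positive for 5 of 6. An exact two-sided sign-flip test, which matches the series by title number, gave p = 0.0625, where the smallest possible p is 0.0312. On the log2 odds scale the mean was 1.45, positive for 6 of 6, with exact p = 0.0312.

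**Figure D3:**
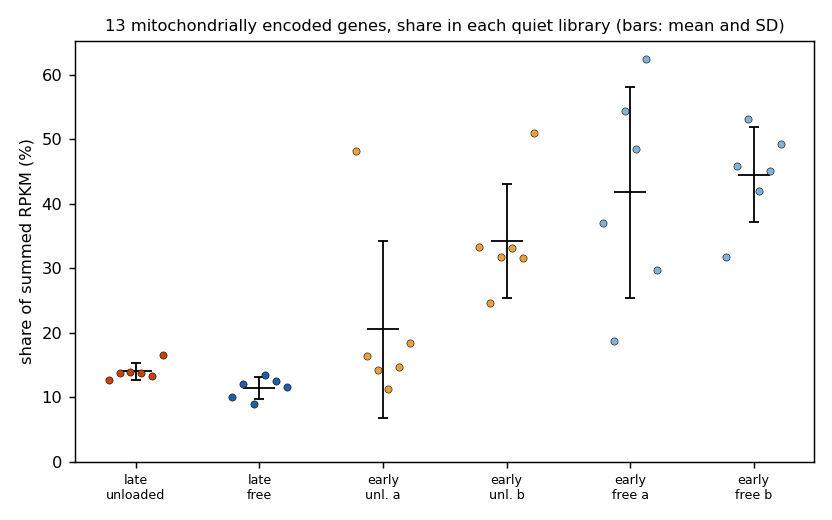
Points are single quiet libraries and show the share of summed RPKM (%) held by the 13 mitochondrially encoded genes, with the mean and SD of each series as bars. Late libraries lie between 8.95% and 16.6%, and early libraries between 11.2% and 62.4%, with the early unloaded series a lower than the other early series except for 1 library at 48.2%.

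The summed RPKM differed between libraries, from 374567 to 389289 in late unloaded and from 337798 to 354908 in late free-moving libraries, and from 391698 to 575827 in early unloaded and from 405655 to 628251 in early free-moving libraries. Under quantile normalization 1 of the 13 mitochondrial genes was positive, and with the share as a covariate 0 were called in either direction. The covariate is computed from these same 13 genes, so its result for them was fixed in advance and is no check. For all other genes and lists, the share itself differed between the groups that enter the contrast. A call lost with the covariate therefore cannot show what that call was due to. The cause of the difference in share was not tested.

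Cytosolic ribosomal protein genes had a positive interaction for 28 of 36 tested members and a negative one for 0, with a median of 0.50. They encode the proteins of the translating ribosome. Over all tested genes 7.98% were positive and 25.6% negative, with a median of -0.22. Rpl26 (ENSMUSG00000060938.14, chr11:68901583-68906989) had 315, 342 and 378 RPKM in late unloaded and 218, 259 and 278 in late free-moving libraries. Rpl26 had 364, 631 and 792 RPKM in early unloaded and 409, 728 and 1296 in early free-moving libraries. The late groups did not overlap, and late free-moving was below the other 30 quiet libraries. Rpl26 had an interaction of 0.86 ± 0.20 (adjusted p = 0.00338), Rpl23 had 0.66, Rpl24 had 0.55 and Rpl27 had 0.55. The called members were positive under each scaling, with 30 members called after quantile normalization, 14 with the mitochondrial covariate and 15 after removal of the length and GC trend, and 0 negative under each. Ribosomal protein genes have many processed copies in the genome, and how reads shared with them were counted is not given in the sources used here.

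Nuclear-encoded subunits of the respiratory chain were positive for 16 of 30 and negative for 4, with a median of 0.37. Over all tested genes 7.98% were positive and 25.6% negative. Ndufb7, an accessory subunit of complex I, had 159, 169 and 193 RPKM in late unloaded and 94.5, 117 and 125 in late free-moving libraries. It had 163, 300 and 356 RPKM in early unloaded and 200, 305 and 632 in early free-moving libraries, so late free-moving was the low group. The interaction was 0.86 ± 0.20 (adjusted p = 0.00339) for Ndufb7, 0.77 for Cox6c and 0.60 for Ndufs5. The 4 negative members were Uqcrc2 (-0.87), Sdha (-0.59), Ndufs1 (-0.47) and Atp5b (-0.39). After removal of the length and GC trend 6 were positive and 7 negative, and with the mitochondrial covariate 12 were positive and 0 negative, so the balance of the list depends on the scaling. Mitochondrial ribosomal protein genes were positive for 4 of 16 and negative for 0 (median 0.26), with Mrpl33 at 0.69 and Mrps21 at 0.63. Proteasome subunits were positive for 2 of 17 and negative for 1, with Psmb6 at 0.55 and Psmd1 at -0.78.

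Voltage-gated potassium channels, which end action potentials and set firing rate, were negative for 13 of 16 tested members and positive for 0, with a median of -0.80. Over all tested genes 25.6% were negative, with a median of -0.22. Beside Kcna3, Kcna1 had 1.97, 2.34 and 2.79 RPKM in late unloaded and 3.89, 4.95 and 5.48 in late free-moving libraries. Early unloaded libraries had 0.364, 0.821 and 2.43 RPKM of Kcna1, and early free-moving libraries 0.281, 0.592 and 1.55. Late free-moving was above the other 30 quiet libraries. The interaction was -1.24 ± 0.24 for Kcna1 (adjusted p = 0.000829), -1.06 for Kcnc1 and -0.92 for Kcna4. The called members were negative under the other scalings too, with 12 members after quantile normalization, 2 with the mitochondrial covariate and 8 after removal of the length and GC trend.

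GABA-A receptor subunits, which form the main inhibitory channel of the brain, were negative for 9 of 14 and positive for 0, with a median of -0.64. Over all tested genes 25.6% were negative. Gabrb1, another beta subunit, had an interaction of -0.99 ± 0.22. Its levels were 6.24, 6.83 and 7.25 RPKM in late unloaded and 9.56, 10.4 and 12.5 in late free-moving libraries. Early unloaded libraries had 2.08, 4.55 and 7.26 RPKM and early free-moving libraries 2.47, 2.95 and 6.17, so late free-moving was the high group and the early groups overlapped. Gabrd, the delta subunit, stood at 0.53 and was not called. The mitochondrial covariate left 3 subunits negative and 0 positive, and after removal of the length and GC trend 5 were negative and 1 positive.

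Ionotropic glutamate receptors were negative for 6 of 15 and positive for 0 (median -0.42), where 25.6% of all tested genes were negative. The list was led by Grin2b at -1.22 ± 0.32, Grik3 at -1.05 and Grin3a at -0.89. Grin2b, a subunit of the NMDA receptor, had 3.02, 3.30 and 3.84 RPKM in late unloaded and 4.63, 5.77 and 6.83 in late free-moving libraries. It had 0.460, 0.967 and 2.94 RPKM in early unloaded and 0.339, 0.576 and 2.45 in early free-moving libraries, with late free-moving again apart. With the mitochondrial covariate 0 members of this list were called, and after quantile normalization 6 were negative and 1 positive. Voltage-gated sodium and calcium channels were negative for 5 of 15 and positive for 0 (median -0.45), not far from the 25.6% of all tested genes. Scn1a had -1.17 and Scn2a had -1.13. With the covariate 1 of these channels was negative and 0 positive, and after removal of the length and GC trend 5 were negative and 2 positive. Synaptic vesicle genes were negative for 7 of 13 and positive for 0 (median -0.52), with Sv2a at -1.05. That direction was lost with the covariate, where 1 vesicle gene was positive and 0 negative, against 10.0% and 2.90% of all tested genes.

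Markers of GABA and glutamate neurons were negative for 3 of 6 and positive for 0 (median -0.65). Gad2, an enzyme of GABA synthesis, had 39.6, 49.8 and 52.7 RPKM in late unloaded and 59.98, 72.1 and 76.2 in late free-moving libraries. Gad2 had 12.6, 20.7 and 43.6 RPKM in early unloaded and 10.2, 14.5 and 39.2 in early free-moving libraries. Late free-moving lay above all other quiet libraries, and the interaction was -1.10 ± 0.28 (adjusted p = 0.00488). None of the 6 markers was called with the mitochondrial covariate. The summed level of these 6 markers was 248 to 290 RPKM in late unloaded, 272 to 351 in late free-moving, 104 to 327 in early unloaded and 88.7 to 240 in early free-moving libraries. Neuron markers thus moved with the channel and receptor lists. Their part in those results was not tested.

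**Figure D4:**
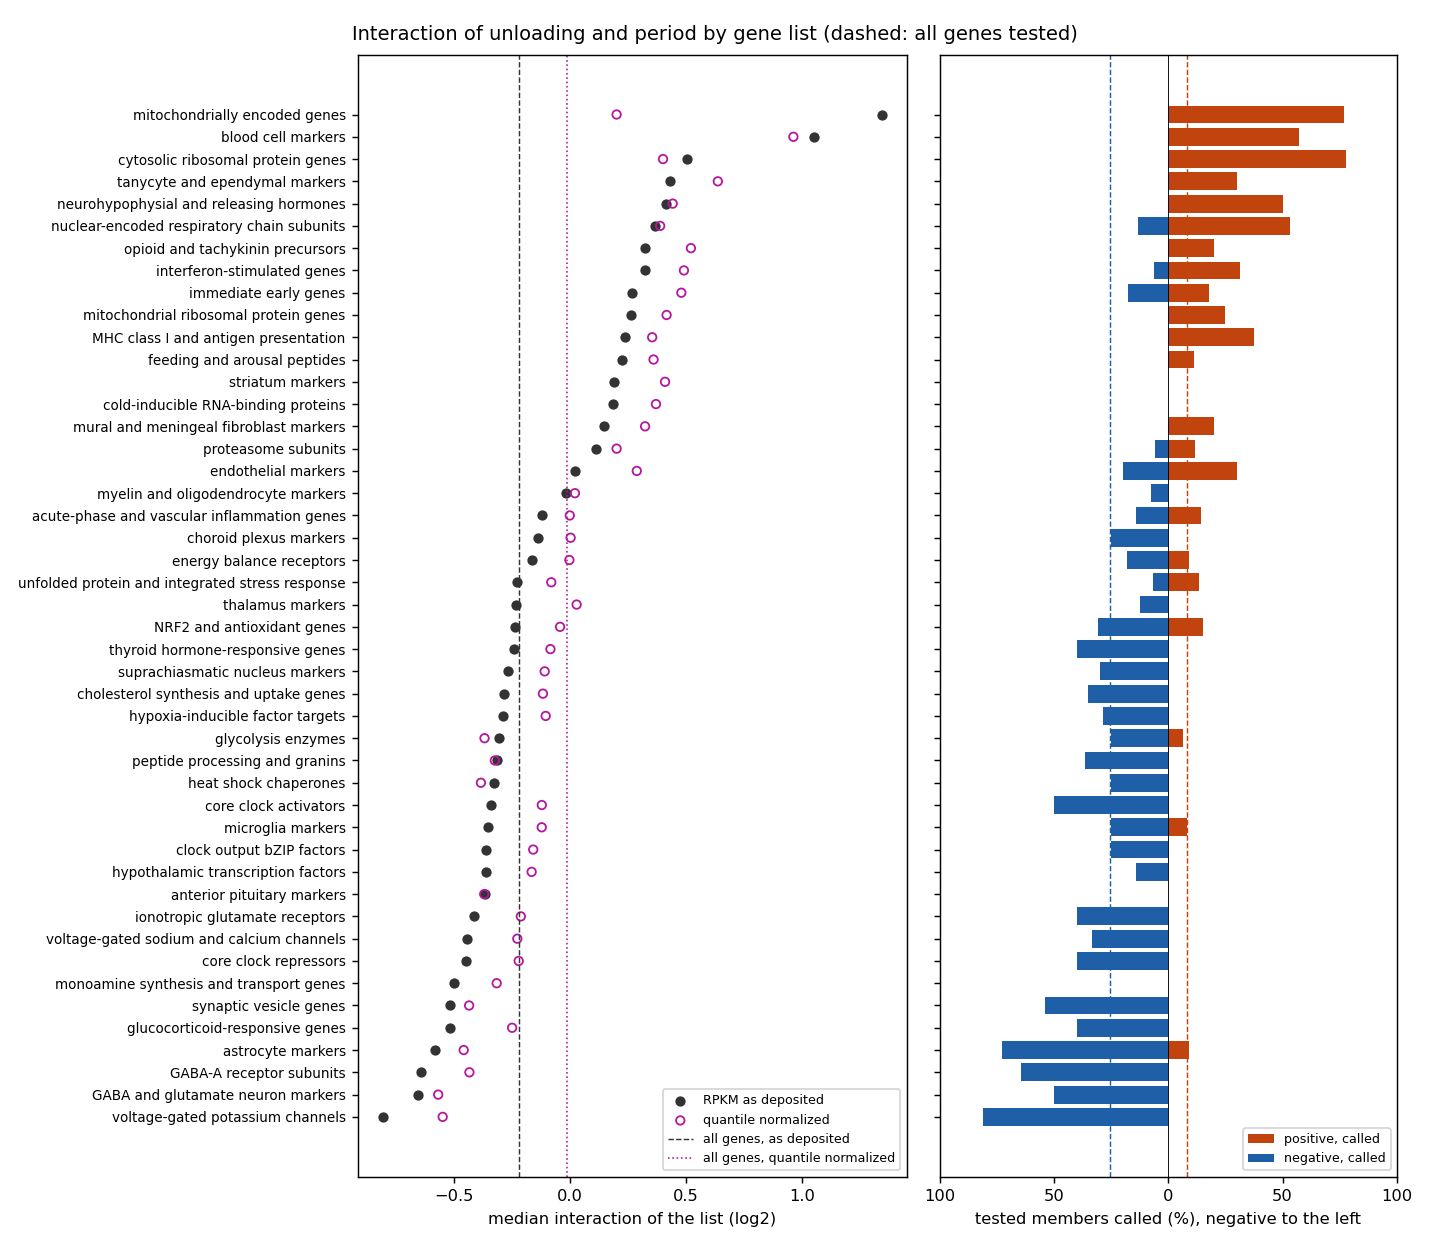
The left panel gives the median interaction (log2) of each gene list with the deposited values (filled) and after quantile normalization (open), and the right panel gives the share of tested members called positive and negative (%). Dashed lines mark all genes tested, with a median of -0.22, 7.98% positive and 25.6% negative, and potassium channels (-0.80) and mitochondrially encoded genes (1.34) lie at the ends.

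Astrocyte markers were negative for 8 of 11 and positive for 1, with a median of -0.58. Slc1a2 and Slc1a3, the glutamate transporters of astrocytes, led with -0.93 ± 0.26 and -0.83 ± 0.21. Slc1a3 had 66.9, 75.6 and 82.6 RPKM in late unloaded and 94.8, 102 and 118 in late free-moving libraries, and 37.0, 57.5 and 94.3 in early unloaded and 28.6, 44.5 and 78.0 in early free-moving libraries. Late free-moving was the high group. The positive member was S100b at 0.38. With the mitochondrial covariate 0 of the 11 were called.

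The other cell type lists differed among themselves, where 7.98% of all tested genes were positive and 25.6% negative. Microglia markers were negative for 3 of 12 and positive for 1, myelin and oligodendrocyte markers negative for 1 of 13, and monoamine genes called for 0 of 6. Endothelial markers were positive for 3 of 10 and negative for 2. Ly6a and Ly6c1, surface proteins of brain endothelium, led the positive ones with 0.73 ± 0.15 and 0.62 ± 0.13. The 2 negative ones were Abcb1a (-0.65) and Kdr (-0.60), and the median of the endothelial list was 0.02. Tanycyte and ependymal markers were positive for 3 of 10 and negative for 0, with a median of 0.43 against -0.22 over all genes. The 3 were markers of multiciliated ependymal cells (Dynlrb2 at 0.66, Ccdc153 at 0.58 and Tmem212 at 0.50). Foxj1 (-0.30) and Rarres2 (-0.14) of the same list went the other way and were not called. Mural and meningeal markers were positive for 2 of 10 and negative for 0. Hypothalamic transcription factors were negative for 2 of 14, suprachiasmatic nucleus markers negative for 3 of 10, choroid plexus markers negative for 2 of 8 and thalamus markers negative for 1 of 8. Anterior pituitary markers were called for 0 of 4 and striatum markers for 0 of 8 in either direction.

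Blood cell markers were positive for 4 of 7, the globin genes Hba-a1 (1.16), Hba-a2 (1.10), Hbb-bs (1.10) and Hbb-bt (1.02), with a list median of 1.05. Near-identical globin copies can share reads. The summed list ranged from 807 to 2634 RPKM in late unloaded, 628 to 1038 in late free-moving, 529 to 4253 in early unloaded and 813 to 6255 in early free-moving libraries. The groups overlapped, and with the mitochondrial covariate 0 members were called. Residual blood in the tissue was not tested as a source.

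Neuropeptide lists differed in how many members were called. Neurohypophysial and releasing hormones were positive for 4 of 8 and negative for 0 (median 0.41). Over all tested genes 7.98% were positive and 25.6% negative (median -0.22). Oxt, the oxytocin precursor, had 660, 735 and 1091 RPKM in late unloaded and 466.2, 561 and 794 in late free-moving libraries. It had 994, 1916 and 2396 RPKM in early unloaded and 1205, 1948 and 3227 in early free-moving libraries, and the groups overlapped in both periods. Its interaction was 0.56 ± 0.22 (adjusted p = 0.048), which was lost without title number 1, 5, 9, 13 or 17 (adjusted p from 0.0677 to 0.109) and turned to -0.02 after removal of the length and GC trend. Gnrh1, the gonadotropin-releasing hormone precursor, had 0.94 ± 0.30 (adjusted p = 0.0171). Sst, the somatostatin precursor, had 0.43, and Tac2, the neurokinin B precursor, had 0.40. Each of these calls was lost without at least 1 title number, and 0 of the list were called with the mitochondrial covariate.

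Avp and Crh were not called for the interaction. Avp, the vasopressin precursor, had 1080, 1255 and 1826 RPKM in late unloaded, 611, 720 and 1095 in late free-moving, 2154, 4066 and 7047 in early unloaded and 1596, 3488 and 7580 in early free-moving libraries. The groups overlapped within each period. Its late effect was 0.82 (adjusted p = 0.0224), and its interaction 0.52 ± 0.30 (adjusted p = 0.164). With the deposited values Crh, the releasing hormone of the stress axis, was higher in unloaded libraries in both periods, by 0.54 late (adjusted p = 0.0315) and 0.35 early (adjusted p = 0.016). The interaction of Crh was 0.18 ± 0.21 (adjusted p = 0.505).

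Feeding and arousal peptides were positive for 1 of 9 and negative for 0. The member called was Cartpt, a satiety peptide precursor, at 0.54 ± 0.16 (adjusted p = 0.0127), and the call was lost without title number 13 or 17. Agrp and Npy, the hunger peptides of the arcuate nucleus, were higher in late unloaded than in late free-moving libraries, by 1.31 for Agrp and 0.93 for Npy. Agrp had 5.77, 8.55 and 17.3 RPKM in late unloaded and 2.21, 3.38 and 6.27 in late free-moving libraries, and 22.3, 49.2 and 74.0 in early unloaded and 20.02, 26.2 and 136 in early free-moving libraries. The groups overlapped within each period. The interaction was 0.80 ± 0.39 for Agrp and 0.53 ± 0.27 for Npy (adjusted p = 0.102 and 0.119). Pomc (0.38), Hcrt (0.06) and Pmch (-0.69), precursors of melanocortins, orexins and melanin-concentrating hormone, were not called, and 58.1% of the exon bases of Pmch overlap a gene on the other strand.

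Opioid and tachykinin precursors were positive for 1 of 5, which was Tac2. Receptors of energy balance were positive for 1 of 11, the orexin receptor Hcrtr1 (0.42), and negative for 2, the orexin receptor Hcrtr2 (-0.74) and the GLP-1 receptor Glp1r (-0.82). The calls of Hcrtr1 and Hcrtr2 were lost without title number 13, and that of Hcrtr1 also without 17. Genes of peptide processing were negative for 4 of 11, with the convertases Pcsk1 at -0.88 and Pcsk2 at -0.60, and the call of Pcsk2 was lost without number 9, 13 or 17. With the mitochondrial covariate 3 members of this list were positive and 0 negative, where 10.0% and 2.90% of all tested genes were. The direction of the list, like that of the whole table, depends on that setting.

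Glucocorticoid-responsive genes were negative for 6 of 15 and positive for 0, with a median of -0.52, against 25.6% negative and a median of -0.22 over all tested genes. With the mitochondrial covariate 1 of the 15 was negative and 0 positive, and after median scaling 4 were negative and 1 positive. Sgk1 (ENSMUSG00000019970.15, chr10:21882184-21999903), a kinase induced by corticosteroids, is shown with part of one of its promoters because that stretch holds the full palindrome of the receptor's element. The stretch is from RefSeq (GRCm38.p6, chr10:21993651-21993765, plus strand), and capitals mark the match to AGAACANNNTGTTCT.
Sgk1: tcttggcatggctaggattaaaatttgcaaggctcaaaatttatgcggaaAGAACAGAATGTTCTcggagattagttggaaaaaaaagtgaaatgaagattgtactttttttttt
On either strand, 1 of 10852 tested genes with a RefSeq promoter held these letters. Sgk1 had 8.03, 13.5 and 40.6 RPKM in late unloaded and 10.5, 18.6 and 35.2 in late free-moving libraries. The early unloaded libraries had 4.82, 12.4 and 33.3 RPKM, and the early free-moving libraries 3.17, 4.37 and 29.0. All groups overlapped, and early free-moving had the lowest median. The interaction was -1.34 ± 0.47 (adjusted p = 0.0268), and the call was lost without title number 9, 13, 17 or 21 (adjusted p from 0.0598 to 0.115).

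Klf9 (chr19:23141226-23168134), a zinc finger gene responsive to glucocorticoid and thyroid hormone, had 10.5, 13.5 and 20.2 RPKM in late unloaded and 13.3, 20.8 and 26.7 in late free-moving libraries. It had 5.63, 9.90 and 15.4 RPKM in early unloaded and 3.47, 6.49 and 11.4 in early free-moving libraries, with overlap in both periods. Its interaction was -0.97 ± 0.23 (adjusted p = 0.00308), called without each title number in turn. Zbtb16, a transcription factor, had -1.16, and Errfi1, a feedback inhibitor of EGF receptor signalling, had -0.62, and the calls of both were lost without title number 17. Of the early effects in this list with the deposited values, 10 of 15 were higher in early unloaded than in early free-moving libraries, where 50.9% of all tested genes were. Thyroid hormone-responsive genes were negative for 4 of 10, among them Klf9, and for 1 with the mitochondrial covariate.

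Clock genes were negative where they were called with the deposited values, but not with the mitochondrial covariate. Core activators were negative for 3 of 6, with Rora at -0.83 and Clock at -0.55, and core repressors for 4 of 10, with Nr1d1 at -0.85, Cry2 at -0.58 and Cry1 at -0.45. Clock output factors were negative for 1 of 4. These shares lie near or above the 25.6% of all genes, and the calls of Rora, Clock, Nr1d1, Cry1 and Cry2 were each lost without number 17, and with the mitochondrial covariate Cry2 turned to 0.03. With that covariate 2 core repressors were positive and 0 negative, and 0 activators and 0 output factors were called. Over all tested genes 10.0% were then positive and 2.90% negative. After quantile normalization 2 activators and 3 repressors were negative, and 1 of each was positive.

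Stress and metabolic lists gave smaller numbers, several of them near the shares over all tested genes (7.98% positive and 25.6% negative). Heat shock chaperones were negative for 3 of 12, among them Dnajb1 at -0.90 and Hsph1 at -0.50, and the call of Hsph1 was lost without title number 17 (adjusted p = 0.0646). In the unfolded protein and integrated stress response 2 of 15 were positive and 1 negative. The positive members were Ddit3, a transcription factor of endoplasmic reticulum stress, at 0.76 ± 0.16 (adjusted p = 0.00153), and Trib3, its target, at 0.61, and the negative one was Asns at -0.60. Trib3 lost its call without number 13, and Asns without 9, 13 or 17. Ddit3 has 2 gene IDs in the annotation and is given by symbol. Cold-inducible RNA-binding proteins were called for 0 of 2, and 4 of 14 hypoxia-inducible genes were negative. NRF2 and antioxidant genes were positive for 2 of 13 and negative for 4. The heat shock, hypoxia and NRF2 lists had 0 negative members with the mitochondrial covariate, where 2.90% of all tested genes were negative.

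Glycolysis enzymes were negative for 4 of 16, where 25.6% of all tested genes were, among them Hk1 (-0.64) and Pfkm (-0.39), and positive for 1, Gapdh at 0.50 ± 0.13. Hk1 and Pfkm lost their calls without title number 9 or 17, and Pfkm also without 13 (adjusted p from 0.0604 to 0.0893). The covariate left 1 glycolysis enzyme positive and 0 negative. Genes of cholesterol synthesis and uptake were negative for 6 of 17 and positive for 0. Lss, the lanosterol synthase, had -0.52 ± 0.16 (adjusted p = 0.0155), Sqle, the squalene epoxidase, had -0.54 ± 0.20 (adjusted p = 0.0379), and Sc5d, a sterol desaturase, had -0.54 ± 0.19 (adjusted p = 0.0277). An antisense gene overlaps 3.53% of the exon bases of Lss. The calls of all 3 were lost without title number 9 or 17 (adjusted p from 0.0615 to 0.127), that of Sqle also without 5 or 13, and that of Sc5d also without 13. The call of Sqle was lost too without early unloaded a number 9 alone (adjusted p = 0.0594) and without both late libraries of number 17 (adjusted p = 0.0685). With the mitochondrial covariate 0 cholesterol genes were called.

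Immediate early genes did not share a direction with the deposited values. Of 17, 3 were positive and 3 negative. Under other scalings positive calls were the more common, with 5 positive and 2 negative after quantile normalization, 7 and 1 after median scaling, and 4 and 0 with the mitochondrial covariate. The whole table moved the same way. Of all called genes 47.8%, 57.1% and 77.6% were positive under these settings, against 23.8% with the deposited values. Beside Npas4, Ier2 had 0.71 ± 0.22 and Jund 0.55 ± 0.15, and the call of Ier2 was lost without title number 5 or 13. An antisense gene overlaps 52.6% of the exon bases of Jund. Nr4a3, an orphan nuclear receptor, had 1.26, 1.90 and 2.88 RPKM in late unloaded and 2.22, 3.57 and 4.21 in late free-moving libraries. The gene had 0.618, 0.901 and 1.39 RPKM in early unloaded and 0.311, 0.774 and 1.75 in early free-moving libraries, with overlap in both periods. Its interaction was -0.84 ± 0.23 (adjusted p = 0.00677). Fos, the best known of these genes, had 0.64 ± 0.36 (adjusted p = 0.154).

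Interferon-stimulated genes had a median of 0.32. They were positive for 5 of 16 and negative for 1, against 7.98% and 25.6% of all tested genes. The positive members were Ifitm3 (0.87), Irf7 (0.78), Bst2 (0.71), Isg15 (0.63) and Ifi27 (0.45). Quantile normalization gave 9 positive and 1 negative. An interferon response element is the known docking site of the factors that interferons activate, so stretches that hold GAAANNGAAA on either strand are shown for the 7 of 12 genes of the list with a RefSeq promoter that held it, chosen for this match. Over all tested genes with a promoter 3.48% held it. The stretches are from GRCm38.p6 on the strand of the gene, and capitals mark the match.
Ifitm3 (chr7:141010723-141010752): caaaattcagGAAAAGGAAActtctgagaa
Isg15 (chr4:156200865-156200894): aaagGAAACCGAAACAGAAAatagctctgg
Bst2 (chr8:71537577-71537606): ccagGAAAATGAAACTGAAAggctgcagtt
Oas1a (chr5:120907520-120907549): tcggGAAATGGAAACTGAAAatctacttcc
Stat2 (chr10:128270266-128270295): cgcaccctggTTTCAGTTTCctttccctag
Ifit1 (chr19:34640794-34640823): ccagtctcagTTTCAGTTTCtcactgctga
Ifit3 (chr19:34583397-34583426): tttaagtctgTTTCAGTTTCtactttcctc
Of these 7, the genes Ifitm3, Isg15 and Bst2 were called positive. The others, Oas1a (0.36), Stat2 (0.12), Ifit1 (0.16) and Ifit3 (-0.09), were not called, so genes with the letters lay on both sides of the threshold.

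Ifitm3 (ENSMUSG00000025492.6, chr7:141009586-141010770), a membrane protein that blocks viral entry, had 30.2, 32.2 and 40.7 RPKM in late unloaded and 18.5, 21.9 and 24.4 in late free-moving libraries. It had 32.9, 42.9 and 58.2 RPKM in early unloaded and 34.9, 55.0 and 67.7 in early free-moving libraries. Late free-moving was the low group, below the other 30 libraries. The interaction was 0.87 ± 0.17 (adjusted p = 0.00105). Isg15, a ubiquitin-like modifier, lost its call without title number 13 (adjusted p = 0.0518). The negative member was Ifit2, an RNA-binding antiviral protein, at -0.68 ± 0.15 (adjusted p = 0.00192). MHC class I and antigen presentation genes were positive for 3 of 8, with the immunoproteasome subunit Psmb8 at 0.81 and the peptide transporter subunit Tap2 at 0.44. The call of Tap2 was lost without title number 5, 9, 13, 17 or 21 (adjusted p from 0.0564 to 0.179).

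Lrg1, an acute-phase glycoprotein of vessels, was higher under late unloading in quiet and in noise. It had 1.90, 2.75 and 4.01 RPKM in late unloaded and 0.481, 0.755 and 1.24 in late free-moving libraries, and 1.04, 2.48 and 3.85 in early unloaded and 0.970, 1.52 and 3.20 in early free-moving libraries. The late groups did not overlap. Its late effect was 1.37 and its early effect 0.36, with an interaction of 1.01 ± 0.29 (adjusted p = 0.00947). In the noise series the effect was 1.82 (adjusted p = 1.49e-05). Among the acute-phase and vascular inflammation genes 1 of 7 was positive, Lrg1, and 1 negative, Serpina3n at -0.59. Ttr, the transthyretin of choroid plexus, had 0.40 ± 1.01 (adjusted p = 0.778).

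The interaction followed transcript length across genes. Positive genes had a median transcript of 1526 bases, negative genes 4670 and all 13535 tested genes with a length 3162. Their GC contents were 54.9%, 48.2% and 50.6%. Among 4 groups of equal size by length, the shortest (204 to 2007 bases) had a median interaction of 0.11, with 20.3% positive and 2.90% negative. In the longest group, 4699 to 40378 bases, the median was -0.47, with 1.89% positive and 50.7% negative. The groups between had medians of -0.17 and -0.32. Genes are not independent replicates, so no p is given. Length moves with the ribosomal, channel and receptor lists above, and its part in those results is bounded only by the counts after removal of the length and GC trend.

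**Figure D5:**
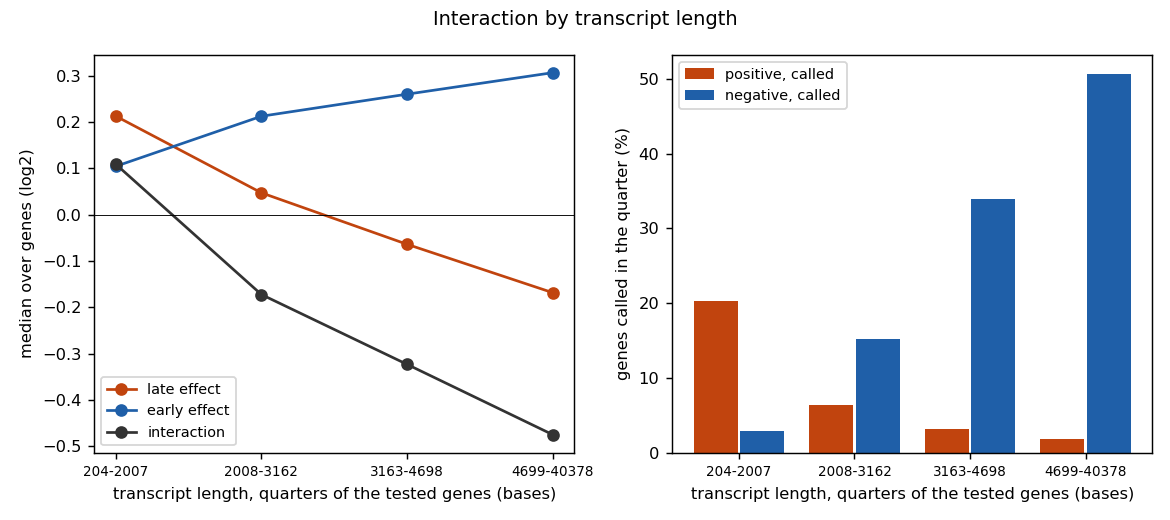
The left panel gives the median late effect, early effect and interaction (log2) in 4 groups of equal size of the tested genes by transcript length (bases), and the right panel the share of genes called positive and negative in each group (%). From the shortest to the longest group the negative share goes from 2.90% to 50.7% and the positive share from 20.3% to 1.89%.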

How the data were processed

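RNA was measured in hypothalamus of pools of 3 mice, extracted with Trizol, with libraries made by Illumina's standard protocol, per the labels. The authors deposited 1 table of RPKM values for 48 libraries. Per the submitters' processing notes they used CASAVA 1.8 and HISAT. Not given in the sources used here are the HISAT version, the genome build, the annotation and the counting tool. Raw counts were not analysed here. Of 21558 genes, 2408 are at 0 in every library.

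Each library's series came from its labels and its title number from its title. Values were taken as log2(RPKM + 0.5) and fitted with limma 3.58.1 in R 4.3.3, with a term for each of the 8 series and each of the 6 title numbers over all 48 libraries (35 residual degrees of freedom) and a variance trend. A log2 difference on this scale understates the change of low genes. Adjusted p-values are Benjamini-Hochberg over the 13685 tested genes, two-sided, and calls are at 0.05. The mitochondrial share was tested with an exact sign-flip test over title numbers. The pipeline was tested on simulated data. Genes named as leading are the 12 largest called interactions each way among genes that reach 1 RPKM in a series mean and share a sign in 5 or more title numbers, up to 4 called members of each of the 46 lists, and a fixed group of hypothalamic and stress genes. The 28 genes called with each early pair, under each of 4 other scalings and without each title number, members named to complete a count, and the promoter examples were chosen after the values were seen. Some genes that the rule names are not reported here. The members and lists were chosen with earlier results of these data known.

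Depth was estimated from low values, of which 62.4% to 69.7% were whole numbers of reads within 0.02 reads (4.0% by chance; up to 12 reads, 21164 genes with a length). The precision of a gene below 1 RPKM is limited by few reads. Positions, transcript lengths and exon overlaps are from GENCODE M21 (GRCm38), matched by symbol, and promoters from RefSeq. No pair of libraries was identical (highest correlation 0.995). The model's title number term and the sign-flip test match the series by number. The labels do not say what a number marks. Deviations of libraries with the same number had a median correlation of 0.080 over 168 pairs, against -0.017 over 840 other pairs. The correlation was above 0.1 for 75 of the 168 pairs and for 218 of the 840. Libraries of 1 number were thus somewhat more often alike, but weakly, which does not show that the numbers pair the samples.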

Additional observations from a re-analysis of the deposited data

Results flagged for a closer look

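The interaction, which compares the unloading effect between periods, was called for 4589 genes. Single libraries of the quiet series were also checked against the other 5 of their series, for the mitochondrial share and 18 genes. Of 114 such checks 20 stood apart, and chance alone marks about 1 in 20.

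The mitochondrial share stood high in late unloaded number 21 (16.6%), early unloaded a number 1 (48.2%) and early unloaded b number 21 (51.0%). mt-Co2 was high in the same early libraries, at 27437 RPKM in early unloaded a number 1 and 27673 RPKM in early unloaded b number 21. Gad2 was low in early unloaded a number 1 (13.2 RPKM) and early unloaded b number 21 (12.6 RPKM), and in late unloaded number 1 (39.6 RPKM).

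Number 1 of early free-moving a, the blood-rich library, was high for Eif4ebp3 (26.7 RPKM), Rpl26 (1296 RPKM), Ndufb7 (632 RPKM), Lrg1 (2.53 RPKM) and Avp (7580 RPKM). Avp was also high in early unloaded b number 13 (6294 RPKM), and Sgk1 in early unloaded b number 21 (24.5 RPKM).

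Late unloaded number 9 was low for Npas4 (3.79 RPKM) and high for Slc9a7 (1.41 RPKM). Kcna3 was high in early unloaded a number 9 (0.672 RPKM). Trpc5 was high in late free-moving number 5 (3.75 RPKM) and early unloaded b number 9 (0.362 RPKM). What sets these libraries apart was not tested.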

How the results depend on the processing

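The interaction count of 4589 moved to 1771 with the mitochondrial covariate, 6991 with array weights per series, 6942 with 1 value per title number, 741 with early series b alone, 6892 with early unloaded a and free-moving b, and 30 with early unloaded b and free-moving a. Without 1 title number it ranged from 1818 to 5426. Without the block for title number it was 3904, and the calls of Oxt, Sgk1, Tac2, Nr1d1, Cry1, Cry2 and Hsph1 were lost (adjusted p from 0.0525 to 0.0957). The title numbers were not shown to pair the samples. The other settings moved the interaction count less. That count was 4435 with a pseudocount of 0.1, 4073 with no expression filter and 4674 with only the 36 quiet libraries.

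The late effect (1745 genes) moved to 3920 after quantile normalization, 3518 after median scaling, 4055 with the covariate, 6828 with array weights, 7090 with 1 value per title number, and 890 without both late libraries of number 17. Without 1 title number it ranged from 619 to 1716, and it was 2099 without the blood-rich library. The early effect (7227) moved to 2784, 2724 and 1 under the same scalings, 3769 with 1 value per title number, 2643 with the length and GC trend removed, 3 with series b alone and 0 with early unloaded b and free-moving a. Without 1 title number it ranged from 0 (without number 17; 21 without number 9) to 8857. The mitochondrial share interaction (18.3 percentage points, exact p = 0.0625) was 12.8 with early series b alone and 1.45 as log2 odds (exact p = 0.0312 for both), and ranged from 14.8 to 22.7 without 1 title number.

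Signs changed for Avp (-0.0104) and Oxt (-0.0235) with the length and GC trend removed, for Crh (-0.15) with early unloaded a and free-moving b, and for Pomc (-0.33) with early unloaded b and free-moving a. Hcrt turned to -0.25 with that pair, -0.49 with the trend removed, -0.0319 after quantile normalization, and between -0.0565 and 0.1528 without 1 title number. With the covariate Cry2 turned to 0.0332, Pmch to 0.46 and Ttr to -0.0067. Ttr was -0.0885 with early series a alone and between -0.43 and 0.7215 without 1 library or title number. mt-Cytb turned to -0.11 after quantile normalization. Over 130 genes and 23 settings 2565 of 2990 values had the same direction and call, 400 lost the call and 11 gained it. The causes were not tested. Removal of the length and GC trend and leaving out single tissue-rich libraries were chosen after seeing the data. Array weights ranged from 0.347 for early free-moving a to 3.10 for late unloaded in quiet, and were 1.14 for early unloaded b and 1.30 for early free-moving b.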
